A study of Mus musculus with 4 samples.

Results

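The 10 genes of the YAP/TAZ and TEAD pathway followed here are 10 of the 22901 gene names in a table of read counts from mouse embryonic fibroblasts (MEFs). They comprise 6 genes known as targets of the pathway (*Ankrd1*, *Ctgf*, *Cyr61*, *Amotl2*, *Lats2* and *Axl*), its coactivators (*Yap1* and *Wwtr1*, the gene of TAZ) and its DNA-binding partners (*Tead1* and *Tead2*). They were chosen by name, with the difference between the genotypes already known for some of them, so their own differences are described here and carry no test. The names match 11 of the 23537 rows of the table, because *Tead1* has 2, and 10 of these rows held enough counts to be fitted, 1 for each name.

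RNA was taken from primary MEFs of C57BL/6 mice, grown out of embryos of day 12.5 and harvested before confluence. KO cells carried the *Mbd4*-/- genotype, *Mbd4* being the gene of a DNA glycosylase that acts on G/T mismatches, and WT cells were *Mbd4*+/+, with 2 samples of each genotype. The RNA was freed of ribosomal RNA and sequenced with its strand kept. The sources used here do not say which embryos or cultures gave the samples, so the p-values below cover the spread among these 4 samples, which may be technical.

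The libraries held 39108275 to 47567835 counts. *Mbd4* itself was at 7.85 and 7.33 CPM (the counts of a gene relative to the depth of its library, which was scaled by TMM) in KO 1 and KO 2 and at 14.8 and 15.4 CPM in WT 1 and WT 2, or -0.99 on the log2 scale (standard error 0.11; adjusted p = 2.8e-06, edgeR). Reads of *Mbd4* thus remained in KO cells, and counts per gene do not show which part of it they cover. *Ift122*, its neighbour on the chromosome and a gene of ciliary transport, held 7 and 3 counts in KO 1 and KO 2 where WT 1 and WT 2 held 1002 and 944, and its loss cannot be told apart from that of *Mbd4* in these samples. Differences between the genotypes were wide, with 66.8% of the 15538 genes tested passing an adjusted p of 0.05 (34.3% higher and 32.5% lower in KO cells).

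YAP and TAZ are the coactivators at the end of the Hippo pathway. When the kinases of the pathway (MST and LATS) are active, they phosphorylate YAP and TAZ, which are then held in the cytoplasm or degraded. When the kinases are inactive, as in spread cells on a stiff support or at low density, YAP and TAZ enter the nucleus, bind TEAD factors and raise the transcription of target genes. Some of the targets, such as *Lats2* and *Amotl2*, encode inhibitors of YAP and close a negative feedback loop. In fibroblasts the pathway is known for its response to tension and for matrix genes such as *Ctgf* and *Cyr61*. Much of this control acts on the proteins, which RNA counts do not measure.

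TEAD factors bind a short core motif, GGAATG, read as CATTCC on the other strand. It was looked for on both strands of the promoters that RefSeq gives for these genes (build GRCm38.p6), each 300 bases long with 250 before and 50 after the start of transcription. Promoters were matched for 8 of the 10 names, in 10 windows, and *Ctgf* and *Tead1* had none matched. *Ankrd1* differed most between the genotypes, and *Cyr61* is a target of high level that differed little. With TMM scaling *Amotl2* was the one gene of the 10 with more RNA in KO cells. The bases before the start are shown for these 3 genes. They lie at chr19:36119845-36120094 on the minus strand, chr3:145649986-145650235 on the minus strand and chr9:102717554-102717803 on the plus strand, and are written 5′ to 3′ along the gene with the core motif in capitals.
Ankrd1: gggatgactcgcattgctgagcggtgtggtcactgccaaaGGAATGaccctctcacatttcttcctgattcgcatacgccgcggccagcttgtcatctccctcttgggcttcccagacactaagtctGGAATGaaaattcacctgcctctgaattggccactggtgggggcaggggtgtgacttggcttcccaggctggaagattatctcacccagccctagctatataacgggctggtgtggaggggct
Cyr61: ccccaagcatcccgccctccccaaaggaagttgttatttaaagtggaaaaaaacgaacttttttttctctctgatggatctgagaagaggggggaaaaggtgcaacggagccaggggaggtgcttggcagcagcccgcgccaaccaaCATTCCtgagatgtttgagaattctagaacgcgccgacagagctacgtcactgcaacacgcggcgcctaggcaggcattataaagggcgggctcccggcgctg
Amotl2: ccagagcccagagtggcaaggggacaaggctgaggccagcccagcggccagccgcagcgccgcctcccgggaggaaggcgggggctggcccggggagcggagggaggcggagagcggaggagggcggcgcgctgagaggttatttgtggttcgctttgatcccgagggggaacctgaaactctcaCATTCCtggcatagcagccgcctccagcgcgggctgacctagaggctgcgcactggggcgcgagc

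*Ankrd1* held 2 matches, at -210 to -205 and at -123 to -118 from the start, both on the strand of the gene. The match of *Cyr61* lay on the other strand at -103 to -98, and that of *Amotl2* on the other strand at -65 to -60. *Axl* had a match at -233 to -228, *Yap1* at -141 to -136 and *Wwtr1* at -136 to -131, where the 2 annotated starts of *Wwtr1* share a single site. *Lats2* had a match at 5 to 10 bases after the first of its 2 annotated starts and none around the second, and *Tead2* had none. In all, 7 of the 8 genes held the motif in at least 1 window. Of all 32851 promoters of this length, 14.7% held at least 1 match and 1.36% held 2 or more. The motif thus stood both in the promoter of the gene that differed most and in promoters of genes that hardly differed or differed the other way. None of the 8 genes held the AP-1 motif TGANTCA (both strands, in 7.81% of all promoters) or a CArG box, the site of serum response factor (1.63% of all promoters). A match is only a run of letters, and binding of TEAD was not measured here.

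**Figure D1:**
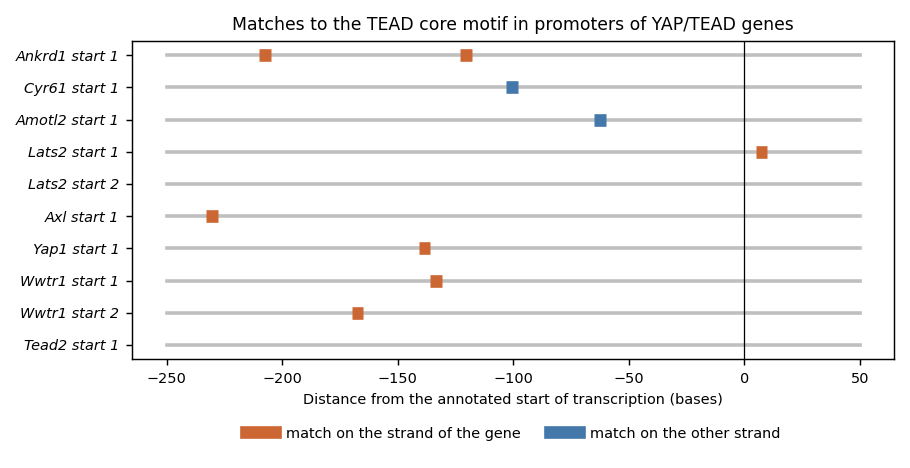
Positions of the TEAD core motif in the promoter windows of 8 genes (10 annotated starts). The horizontal axis is the distance from the annotated start of transcription in bases, grey lines are the windows searched, orange marks are matches on the strand of the gene and blue marks matches on the other strand. *Ankrd1* has 2 matches, *Tead2* and the second start of *Lats2* have none, and the marks of the 2 *Wwtr1* starts are the same site.

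*Ankrd1* encodes a cardiac ankyrin repeat protein that shuttles between sarcomere and nucleus in muscle and is a common marker of YAP activity in other cells. It was nearly lost from KO cells. KO 1 and KO 2 held 51 and 75 counts and WT 1 and WT 2 held 15157 and 11750, which is 1.07 and 1.82 CPM against 338 and 287 CPM. The means were 1.45 ± 0.528 CPM in KO cells and 313 ± 36.5 CPM in WT cells (SD, n = 2). The log2 fold change was -7.78 (standard error 0.15), or 219-fold lower in KO cells, and even the lowest WT library stood 158-fold above the highest KO library. Of the 15538 genes tested, *Ankrd1* had the 26th lowest log2 fold change. The gene (ENSMUSG00000024803) lies at chr19:36186455-36194334 on the minus strand of mm9, and no other annotated gene overlaps it.

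*Ctgf* (connective tissue growth factor, also named *Ccn2*), a secreted matrix protein, showed the second largest difference. Its counts were 15931 and 14404 in KO libraries and 81805 and 55090 in WT libraries. The KO libraries lay close together at 335 and 349 CPM, while the WT libraries stood apart at 1827 and 1345 CPM, a ratio of 1.36 between replicates. The log2 fold change was -2.21 (standard error 0.11), or 4.63-fold lower in KO cells, and it was -1.98 without WT replicate 1 and -2.45 without WT replicate 2. *Ctgf* (ENSMUSG00000019997, chr10:24315248-24318489, plus strand) overlaps *Gm15270* on the opposite strand. How strand was handled when reads were counted is not stated in the methods or labels, so reads of overlapping genes cannot be told apart, and the same holds for the other overlaps named below.

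*Cyr61* (*Ccn1*), the close relative of *Ctgf* that is also secreted into the matrix, differed far less. It was at 899 and 936 CPM in KO libraries and at 1247 and 1248 CPM in WT libraries, a log2 fold change of -0.44 (standard error 0.06). The WT replicates, which differed for *Ctgf*, were nearly identical for *Cyr61*. *Axl*, a receptor tyrosine kinase of the TAM family, was at 370 and 369 CPM in KO libraries and at 471 and 420 CPM in WT libraries (log2 fold change -0.27, standard error 0.07). The groups did not overlap for *Axl*, but the gap between them, from 370 to 420 CPM, was no wider than the gap between the WT replicates. *Cyr61* lies at chr3:145309935-145312949 (minus strand) and *Axl* at chr7:26542292-26573724 (minus strand), neither overlapping another gene.

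The feedback inhibitors went opposite ways. *Amotl2*, an angiomotin that binds YAP and holds it at junctions, was at 816 and 872 CPM in KO libraries and at 639 and 630 CPM in WT libraries, a log2 fold change of 0.41 (standard error 0.06). *Lats2*, a kinase that phosphorylates YAP and TAZ, was at 104 and 110 CPM in KO libraries and at 148 and 142 CPM in WT libraries, a log2 fold change of -0.44 (standard error 0.06). With TMM scaling *Amotl2* (chr9:102619002-102635748, plus strand) was the only one of the 10 genes above its WT level in both KO libraries. No scaling tried turned its direction. With library totals *Yap1* was above as well, at 195 and 196 CPM in KO against 188 and 184.5 CPM in WT libraries. *Lats2* (chr14:58260914-58377225, minus strand) overlaps *Xpo4* on the same strand and *SNORA65* and *RP24-92H14.2* on the opposite strand.

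The coactivators hardly differed. *Yap1* was at 185 and 185 CPM in KO libraries and at 200 and 193 CPM in WT libraries, and its log2 fold change of -0.08 (standard error 0.06) turned to 0.07 when libraries were scaled by their totals alone. *Wwtr1* was at 226 and 216 CPM in KO libraries and at 251 and 247 CPM in WT libraries, a log2 fold change of -0.17 (standard error 0.06) that shrank to -0.02 with library totals. Under that scaling the 2 groups of *Wwtr1* libraries overlapped. *Yap1* (chr9:7931999-8004596, minus strand) overlaps *RP23-349N15.1* and *Wwtr1* (chr3:57259571-57379832, minus strand) overlaps *Gm16016*, both on the opposite strand.

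Of the DNA-binding partners, *Tead1* differed more between the genotypes than *Tead2*, with a wider spread between replicates. It had 1667 and 1773 counts in KO libraries and 2882 and 3368 in WT libraries, which is 35.1 and 43.0 CPM against 64.3 and 82.2 CPM. The log2 fold change was -0.91 (standard error 0.11), or 1.88-fold lower in KO cells, and the replicates of each genotype also differed, by a ratio of 1.23 in KO and 1.28 in WT cells. *Tead2* was at 90.6 and 90.9 CPM in KO libraries and at 111 and 108 CPM in WT libraries (log2 fold change -0.27, standard error 0.06), with replicates much closer to each other than the genotypes. *Tead1* (ENSMUSG00000055320, chr7:119822832-120050319, plus strand) overlaps *2310014F06Rik* on the opposite strand. The other row named *Tead1* (ENSMUSG00000055593) is a processed transcript at chr7:120046474-120050321, with 3846 of its bases inside the first, and held 1, 0, 1 and 2 counts in KO 1, KO 2, WT 1 and WT 2, too few to test. *Tead2* (chr7:52471123-52489005, plus strand) overlaps *Cd37* on the opposite strand.

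All 10 genes had both KO libraries on one side of both WT libraries, 9 below and 1 above, as did 82.8% of all genes tested (39.8% below and 43.0% above), and since the contrast chose the genes nothing is read from this count. Their median log2 fold change was -0.35, while that of all genes tested was 0.02. For 7 of the 10 the size was under 0.5 on the log2 scale, so the median says little about *Ankrd1*, *Ctgf* and *Tead1*. Summed over the 6 targets, the level was 2526 and 2638 CPM in KO libraries and 4669 and 4072 CPM in WT libraries. Without *Ankrd1* and *Ctgf* the sum of the remaining 4 was 2189 and 2287 CPM in KO libraries against 2505 and 2440 CPM in WT libraries.

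**Figure D2:**
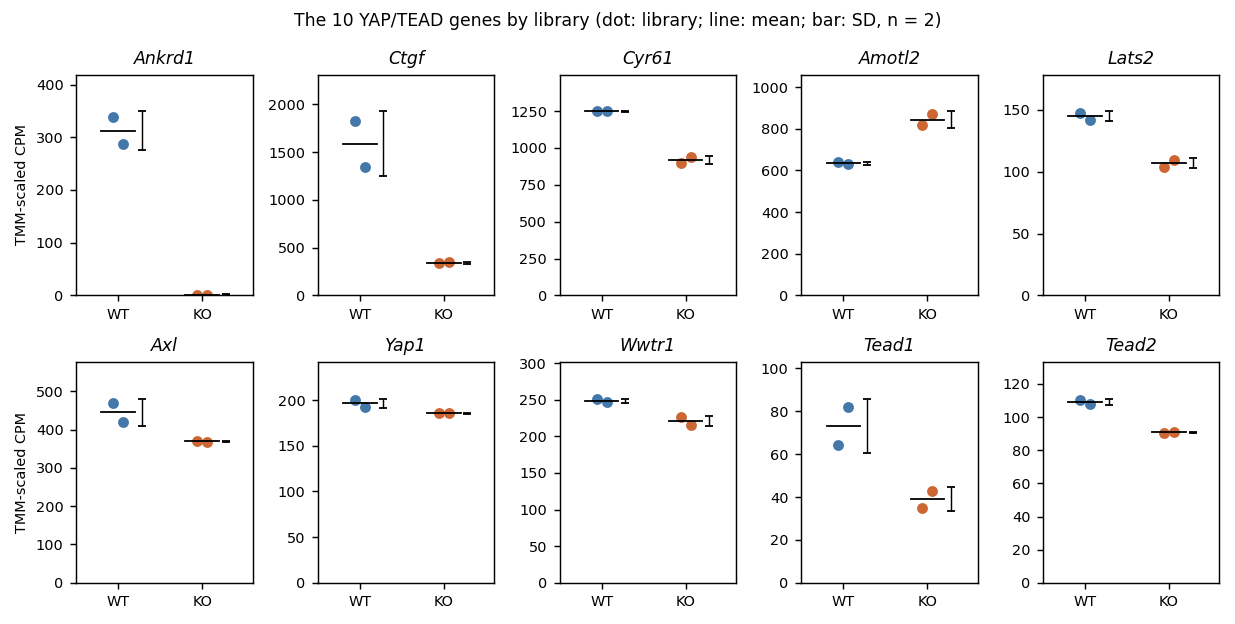
TMM-scaled CPM of each of the 10 genes in the 2 WT (blue) and 2 KO (orange) libraries, on linear axes from 0. Dots are libraries, lines are means and bars are SDs of 2 libraries. *Ankrd1* lies at 1.07 and 1.82 CPM in KO against 287 and 338 CPM in WT libraries, *Ctgf* shows wide WT replicates, *Amotl2* is the one gene with KO above WT, and *Yap1* and *Wwtr1* lie almost level.

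Levels of different genes were compared per kilobase of exon. In WT cells the order was led by *Ctgf* (637 ± 137 CPM per kb) and *Cyr61* (615 ± 0.238 CPM per kb), which did not differ beyond the spread of *Ctgf*. They ranked 41st and 44th among 15496 genes. *Ankrd1* followed at 177 ± 20.7 CPM per kb, then *Amotl2* (101 ± 1.0), *Axl* (88.5 ± 7.11) and *Wwtr1* (52.0 ± 0.582). *Tead2* (23.4 ± 0.419), *Yap1* (21.2 ± 0.557) and *Lats2* (19.8 ± 0.559) lay close together, and *Tead1* was lowest at 6.52 ± 1.12 CPM per kb (SD, n = 2 for each). How reads shared with the other row named *Tead1* were counted is not stated. The level of *Tead1* per kb in either genotype, and the ratios to it given below, are uncertain for that reason.

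In KO cells *Cyr61* stood alone at the top with 452 ± 12.8 CPM per kb. *Ctgf* (137 ± 4.05) and *Amotl2* (134 ± 6.30) came next and did not differ beyond their spread, followed by *Axl* (73.4 ± 0.146) and *Wwtr1* (46.2 ± 1.5). *Yap1* (20.03 ± 0.0122) and *Tead2* (19.4 ± 0.0404) were close, with *Lats2* at 14.6 ± 0.553 and *Tead1* at 3.48 ± 0.50 CPM per kb. *Ankrd1*, next after *Cyr61* in WT cells, was last at 0.819 ± 0.299 CPM per kb, and its rank among 15496 genes went from 262nd to 12257th. The order of the other 9 genes changed only by the places of *Ctgf* against *Cyr61* and of *Tead2* against *Yap1*.

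Ratios within a library do not depend on how libraries are scaled. *Ctgf* over *Cyr61*, per kb, was 0.304 in each of the KO libraries and 1.19 and 0.878 in WT 1 and WT 2. *Ankrd1* over *Ctgf* was 0.00452 and 0.00735 in KO libraries and 0.261 and 0.301 in WT libraries, so the 2 most lowered targets were not lowered in step. Among the factors, *Tead2* over *Tead1* was 6.22 and 5.09 in KO libraries against 4.14 and 3.16 in WT libraries. *Wwtr1* over *Yap1* stayed between 2.25 and 2.48 in all 4 libraries. The pair of coactivators thus kept nearly 1 ratio while targets and TEAD factors shifted against each other.

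**Figure D3:**
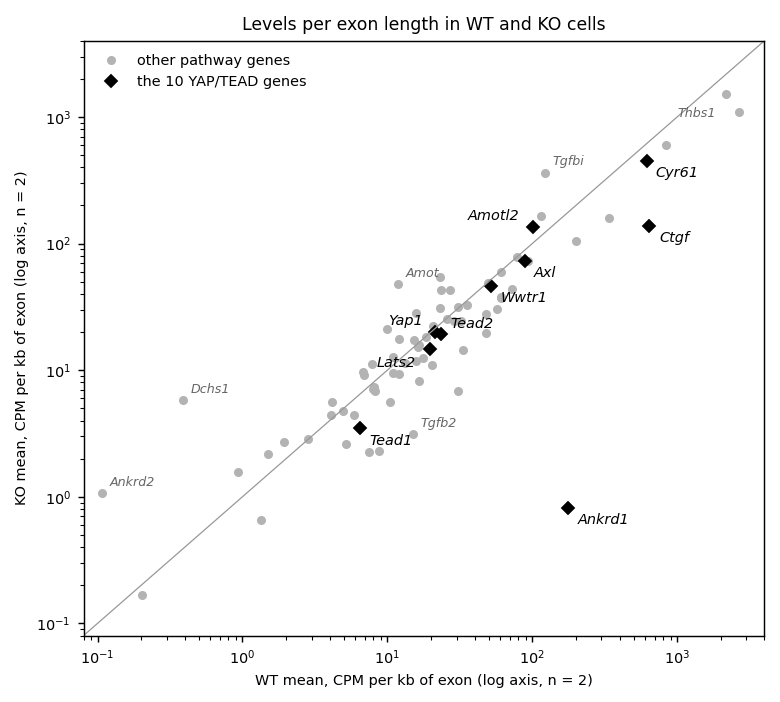
Mean level per kb of exon in KO (vertical axis) against WT cells (horizontal axis), both on log axes in CPM per kb with n = 2. Black diamonds are the 10 genes, grey dots other pathway genes and the line marks equal levels. *Ankrd1* lies far below the line at 0.819 against 177 CPM per kb, *Ctgf* below it at 137 against 637, and the remaining 8 closer to it.

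The genes beside *Ankrd1* and *Ctgf* did not show differences of that size. Of the 3 tested genes on either side of *Ankrd1*, *Rpp30*, 7.19 kb away, fell by 0.32 on the log2 scale (adjusted p = 0.0042, edgeR) and *Pcgf5*, 259 kb away on the other side, fell by 0.71 (adjusted p = 2.58e-05, edgeR). *Pank1* rose by 0.74 (adjusted p = 1.55e-05, edgeR), while *Kif20b* (0.01), *Hectd2* (-0.24) and *1500017E21Rik* (0.20) did not pass the test. Around *Ctgf*, the nearest tested gene *Enpp1*, 39.2 kb away, rose by 0.93 (adjusted p = 9.22e-06, edgeR). *Vnn1* fell by 0.75 (adjusted p = 0.00445, edgeR), *Moxd1* (0.75), *Med23* (0.24) and *Akap7* (0.39) rose, and *Stx7* (-0.13) did not pass. These neighbours included genes of both directions.

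The 3 genes whose pattern over the 4 libraries was nearest to that of *Ankrd1*, by root mean square distance of centred log2 CPM, were *Cdh3*, *Gjb2* and *Npepl1*. *Cdh3*, which encodes P-cadherin of epithelial junctions, was nearest (distance 0.505), with 9 and 13 counts in KO libraries and 2858 and 2435 in WT libraries. *Gjb2*, a gap junction gene (distance 0.573), had 102 and 94 counts in KO libraries and 10923 and 7322 in WT libraries. *Npepl1*, named for its likeness to an aminopeptidase (distance 0.801), had 5 and 19 counts in KO libraries and 1878 and 1618 in WT libraries. Like *Ankrd1*, each was abundant in both WT libraries and close to absent from both KO libraries.

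The other genes of the pathway were counted in the fit over all genes, in lists of 73 names of which 69 could be tested. In KO cells 21 rose, 32 fell and 16 did not pass an adjusted p of 0.05 (edgeR), so 76.8% changed where 66.8% of all genes did, and their median log2 fold change was -0.15. With library totals as the scaling, 27 rose and 27 fell, an even split. TMM put 39.6% of these calls on the higher side, and 51.4% of the calls over all genes. Library totals also move the median of all genes, from 0.02 to 0.17. The median of the pathway genes moved with it, from -0.15 to 0.004, and stayed below that of all genes. Under a stricter rule (adjusted p of 0.01 and more than 2 on the log2 scale in either direction), which 8.94% of all genes met, 3 rose (*Dchs1*, *Amot* and *Ankrd2*) and 2 fell (*Tgfb2* and *Wisp2*).

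Of 22 other genes known as YAP/TAZ targets, 5 rose, 13 fell and 4 did not pass, where 34.3% of all genes rose and 32.5% fell. Their median log2 fold change was -0.26. This list too was chosen with earlier results known, so the share that fell is a description. The largest fall was that of *Tgfb2*, the gene of a TGF-beta ligand, with 726 and 613 counts in KO and 3164 and 3087 in WT libraries (-2.28 on the log2 scale, standard error 0.08, adjusted p = 2.54e-11 by edgeR). *Nt5e*, a surface enzyme that makes adenosine, fell by 1.95 (adjusted p = 3.89e-07, edgeR), with WT replicates as far apart as 1755 and 980 counts. *Thbs1*, the matrix protein thrombospondin and the most abundant of these targets at 2676 CPM per kb in WT cells, fell by 1.28 (adjusted p = 4.08e-09, edgeR). *Edn1*, the gene of endothelin, fell by 1.06 (adjusted p = 0.00274, edgeR), although its WT libraries held only 181 and 94 counts. *Ccdc80*, a matrix gene, fell by 0.93 (adjusted p = 1.57e-08, edgeR).

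Other targets rose. *Tgfbi*, a matrix protein that TGF-beta induces, had 51327 and 44278 counts in KO and 14505 and 16435 in WT libraries, a rise of 1.57 on the log2 scale (standard error 0.09, adjusted p = 2.58e-09, edgeR). *Dock5*, an activator of Rac, rose by 1.10 (adjusted p = 2.19e-09, edgeR) and *Ptpn14*, a phosphatase that binds YAP and restrains it, rose by 0.82 (adjusted p = 3.85e-07, edgeR). *F3*, tissue factor, rose by 0.53 and *Rbms3*, an RNA-binding protein, by 0.49. *Fjx1*, *Myof*, *Foxf2* and *Areg* did not pass, with log2 fold changes from -0.27 to 0.02, and *Igfbp3* had too few counts to test. Known targets of the pathway therefore changed in both directions, as *Ankrd1* and *Amotl2* differed among the 10.

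Of 22 genes of the Hippo kinases and their regulators, 7 rose, 5 fell and 10 did not pass, with a median log2 fold change of -0.03. Thus 54.5% of them changed, where 66.8% of all genes did. The core kinase genes differed among themselves. *Stk4*, which encodes a kinase of the MST pair, fell by 0.91 (adjusted p = 9.63e-08, edgeR). *Stk3*, the other gene of that pair, was at -0.04 (standard error 0.07) and did not pass. In WT cells *Stk3* was the more abundant, at 25.8 against 10.4 CPM per kb. *Lats1*, the partner of *Lats2*, was at -0.09 (standard error 0.06) and did not pass. *Mob1a*, a cofactor of the LATS kinases and the most abundant of the list per kb in WT cells, was at 0.02 (standard error 0.06) with 78.9 CPM per kb in KO and 78.1 CPM per kb in WT cells.

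The largest changes of that list were upward. *Dchs1*, a giant protocadherin, had 2791 and 2876 counts in KO and 197 and 173 in WT libraries (3.90 on the log2 scale, standard error 0.11, adjusted p = 3.78e-12 by edgeR). *Fat4*, the protocadherin that binds it, rose by 1.25 (adjusted p = 1.95e-08, edgeR), with 42958 and 40450 counts in KO and 16100 and 17821 in WT libraries. *Amot*, a relative of *Amotl2* among the angiomotins, rose by 2.01 (standard error 0.06, adjusted p = 1.08e-11, edgeR), while *Amotl1*, the other angiomotin, was at -0.00 (standard error 0.06) and did not pass. *Wwc2*, a scaffold that activates LATS kinases, fell by 1.19 (adjusted p = 1.85e-09, edgeR). *Ajuba*, listed as *Jub*, which restrains LATS kinases, fell by 0.92 (adjusted p = 8.16e-08, edgeR). *Frmd6* and *Rassf1* fell by 0.79 and 0.49.

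Relatives of the 10 genes were read by family. Among the TEAD factors, *Tead4* fell by 0.99 (adjusted p = 2.09e-06, edgeR), close to the difference of *Tead1*, while *Tead3* rose by 0.39 (adjusted p = 4.97e-04, edgeR). Of the Vestigial-like cofactors of TEAD, *Vgll3* fell by 1.29 (adjusted p = 4.22e-10, edgeR) and was the most abundant, at 47.6 CPM per kb in WT cells. *Vgll4*, which competes with YAP for TEAD, rose by 0.19 (adjusted p = 0.0276, edgeR), a call lost with RLE scaling, in DESeq2, with no filter and without KO replicate 2 or WT replicate 2. *Vgll1* and *Vgll2* are not analysed here.

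All 3 relatives of *Ctgf* and *Cyr61* that were tested fell, where 32.5% of all genes did. *Wisp2* fell by 2.17 (standard error 0.08, adjusted p = 6.1e-11, edgeR), nearly as far as *Ctgf*, from 2552 and 2517 counts in WT to 637 and 531 in KO libraries. *Wisp1*, the most abundant of the 3, fell by 0.74 (adjusted p = 1.02e-06, edgeR). *Nov* fell by 0.39 (adjusted p = 0.0129, edgeR), a call lost with library totals and without KO replicate 1, KO replicate 2 or WT replicate 2. *Wisp3* is not analysed here.

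The relatives of *Ankrd1* among the muscle ankyrin repeat proteins went the other way, at low levels. *Ankrd2* had 60 and 45 counts in KO and 4 and 6 in WT libraries, a rise of 3.31 on the log2 scale (standard error 0.41, adjusted p = 9.22e-06, edgeR). *Ankrd23* had 211 and 172 counts in KO and 131 and 120 in WT libraries, a rise of 0.56 (adjusted p = 0.00811, edgeR) whose call was lost without KO replicate 1. The 2 genes together came to 5.70 and 5.26 CPM in KO and 3.01 and 3.08 CPM in WT libraries, far from the 287 to 338 CPM that *Ankrd1* had in WT cells.

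Among the relatives and ligands of *Axl*, the receptor gene *Mertk* rose by 0.73 (adjusted p = 5.02e-04, edgeR) and *Tyro3* was at 0.12 and did not pass. *Pros1*, the gene of the ligand protein S and the most abundant of the 4, rose by 0.65 (adjusted p = 4.23e-06, edgeR). *Gas6*, the gene of the other ligand, fell by 0.25 (adjusted p = 0.0213, edgeR), a call lost with upper quartile scaling, with library totals and without KO replicate 1.

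Serum response factor (SRF) responds to actin and shares targets with YAP, and *Ankrd1*, *Ctgf* and *Cyr61* are known to answer to both. Of 12 genes of SRF, its cofactors and targets, 3 rose, 8 fell and 1, *Srf* itself (0.11, standard error 0.07), did not pass, where 34.3% of all genes rose and 32.5% fell. *Vcl*, the adhesion protein vinculin, fell by 1.08 (adjusted p = 3.23e-09, edgeR), and *Acta2*, smooth muscle actin and the most abundant of the list, fell by 0.52 (adjusted p = 1.77e-05, edgeR). *Mkl2*, a cofactor of SRF that actin controls, rose by 0.44 (adjusted p = 1.43e-04, edgeR). *Mkl1*, its relative in the list, fell by 0.36 (adjusted p = 0.00235, edgeR). In WT cells *Mkl1* was the more abundant, at 12.1 against 4.13 CPM per kb.

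The immediate early genes of the list went both ways and varied between replicates. *Fosb* fell by 1.74 (adjusted p = 1.74e-05, edgeR) with 481 and 277 counts in KO and 1641 and 812 in WT libraries, and *Ier2* fell by 0.89 (adjusted p = 3.31e-05, edgeR) with 1607 and 1051 counts in WT libraries. *Fos* rose by 0.86 (adjusted p = 1.99e-04, edgeR) with 5233 and 3738 counts in KO and 3032 and 1762 in WT libraries, and *Egr1* rose by 0.53 (adjusted p = 0.00126, edgeR). *Junb* fell by 0.71 (adjusted p = 2.17e-05, edgeR) with 5620 and 3924 counts in WT libraries. All of these genes had a higher CPM in WT replicate 1 than in WT replicate 2. The ratios ran from 1.31 (*Junb*) to 1.85 (*Fosb*), and that of *Ctgf* was 1.36.

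**Figure D4:**
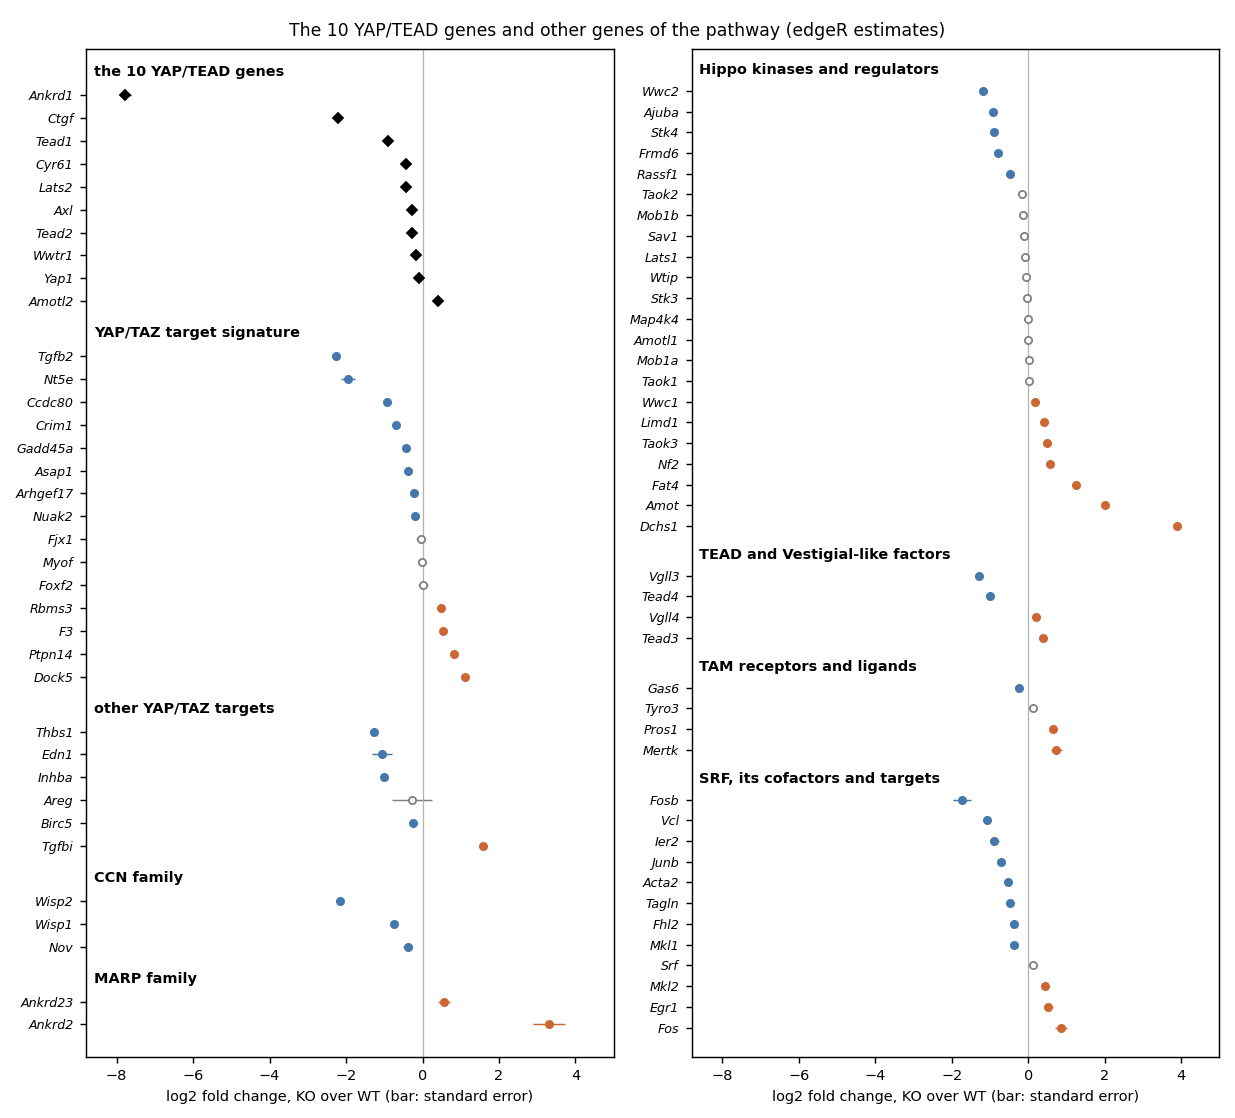
Log2 fold change of KO over WT cells from edgeR for the 10 genes (black diamonds, no test) and other genes of the pathway by list. Bars are standard errors, orange and blue points rose and fell at an adjusted p of 0.05, and open points did not pass. *Ankrd1* lies at -7.78, *Dchs1* at 3.90 is the highest of the other genes and *Tgfb2* at -2.28 the lowest.

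Markers of cell types were read beside these values. In bulk RNA, fewer cells of a type and less RNA per cell cannot be told apart. All 10 fibroblast markers were tested, and 0 rose, 7 fell and 3 did not pass (edgeR), with *Col1a1* (-1.32), *Col3a1* (-1.31) and *Fbn1* (-1.14) lowest and *Vim* (-0.59) the most abundant per kb. Over all genes 66.8% changed, 34.3% rose and 32.5% fell. Of these markers 70.0% changed, close to that share, but all of their calls were falls (median log2 fold change -0.50). At an unadjusted p of 0.05, and in DESeq2 and limma-voom, 0 rose as well, while 1 rose with upper quartile scaling and 2 with library totals. Their summed level was 14708 to 15880 CPM in KO and 23824 to 26525 CPM in WT libraries, so the cells of both genotypes carried the markers of their label. The part of this shift in the differences of *Ctgf* and the other matrix genes was not tested.

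*Ankrd1* is abundant in heart and also expressed in skeletal muscle, so markers of both were read. Of 10 cardiomyocyte markers 4 could be tested, 2 rose and 2 fell (edgeR), with a summed level of 5.80 to 6.23 CPM in KO and 4.64 to 6.59 CPM in WT libraries. The call of *Ryr2*, 1 of the 2 that rose (20 and 15 counts in KO, 8 and 6 in WT libraries), was lost in DESeq2, with no filter and without any 1 of the 4 libraries. Defining genes were near 0, *Myh6* with 0, 0, 0 and 1 counts and *Actc1* with 0, 1, 1 and 3 counts in KO 1, KO 2, WT 1 and WT 2. *Tnnt2* fell from 133 and 67 counts in WT to 12 and 9 in KO libraries, and *Nppb* from 85 and 47 to 11 and 7. *Tnni3* rose from 49 and 50 counts in WT to 247 and 193 in KO libraries. Of 10 skeletal muscle markers 5 could be tested, 1 rose and 2 fell, led by *Acta1* (-1.76), with a summed level of 5.41 to 6.36 CPM in KO and 9.18 to 11.5 CPM in WT libraries. The part of muscle cells in the difference of *Ankrd1* was not tested.

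Of 6 epithelial markers 3 could be tested, and they did not move together: *Krt19*, a keratin gene, fell like *Ankrd1* from 1229 and 1114 counts in WT to 12 and 14 in KO libraries, while *Cdh1*, the gene of E-cadherin, rose from 10 and 9 to 142 and 107 counts and *Epcam* (-0.26) did not pass. Their summed level, which in WT cells is almost that of *Krt19* alone, was 3.25 to 3.56 CPM in KO and 28.2 to 28.5 CPM in WT libraries, and *Krt18* had 0 counts in both KO libraries and 3 and 7 in WT libraries. Of 7 endothelial markers 4 could be tested and 0 passed in edgeR (0 also at an unadjusted p of 0.05, in DESeq2 and in limma-voom), with log2 fold changes of 0.64 to 0.85 and a summed level of 1.54 to 1.75 CPM in KO and 1.12 to 1.34 CPM in WT libraries. Of 6 macrophage markers 4 could be tested, *Csf1r* (1.74) and *Fcer1g* rose, *Ptprc* fell with 0 and 2 counts in KO against 40 and 21 in WT libraries, and *Cd68* did not pass. The call of *Fcer1g* was lost in DESeq2 and without KO replicate 1, KO replicate 2 or WT replicate 1. The summed macrophage level was 6.73 to 6.94 CPM in KO and 3.69 to 4.47 CPM in WT libraries. The part of these other cell types in the difference of *Ankrd1* was not tested either.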

How the data were processed

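Per the labels and methods, the authors aligned the reads to mm9 with TopHat2 and Bowtie (base calls with CASAVA 1.8.2 per the submitters' processing notes) and counted them per Ensembl gene with HTSeq 0.5.4p3. The deposited values used here are these raw counts, for 23537 genes in 4 libraries of 39108275 to 47567835 counts. Its strand and overlap settings are not given in the sources used here. That table holds normalized counts and the authors' own comparison (log2 ratios and p-values), which were not used. Replicates differed by more than sampling noise (chi-square per gene 6.05 in KO and 12.6 in WT pairs). This does not show whether they came from separate embryos or cultures. Each library was treated as 1 sample.

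Counts were fitted with edgeR 4.0.16 (R 4.3.3). Its filter on low counts removed 7999 genes and kept 15538, which TMM scaled and the quasi-likelihood test compared, genotype being the only term, with Benjamini-Hochberg adjustment over all of them. A standard error is the size of the log2 fold change over the root of F. The common biological coefficient of variation was 0.0597. The script was tested on simulated data. An exact permutation test of 2 against 2 libraries gives no p below 0.333, so none is used for single values. Positions and exon lengths come from the mm9 annotation, which holds 23393 of the identifiers. Alternatives were RLE, upper quartile and library total scaling, 2 other filters, stricter thresholds, DESeq2 1.42.0, limma-voom (limma 3.58.1), a block for the replicate number, and fits without each library in turn.

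The 10 genes and all lists were chosen with earlier results of these data known. Named are the 10 genes, their paralogs, and of each list up to 3 genes per direction with the largest called change and a mean of at least 1 CPM, plus the most abundant per kb. A gene that this rule names is not reported here, though the list counts include it. Likeness to *Ankrd1* used log2 of CPM plus 0.5, centred over the 4 libraries. Genes named to complete counts of 5 or fewer, the other marker genes given with counts, *Mkl1*, *Stk3* and those compared between WT replicates were chosen after their values were seen.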

Additional observations from a re-analysis of the deposited data

How the results depend on the processing

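With 2 libraries per genotype the spread rests on few values, and another scaling can turn a small difference. Library totals alone turned *Yap1* to 0.066 on the log2 scale, the only reversal among 120 values recomputed for the 10 genes, and left 9 of the 10 with groups that did not overlap, *Wwtr1* being the exception. Over all settings that kept 4 libraries, *Ankrd1* lay between -7.81 and -7.63 and *Ctgf* between -2.24 and -2.06. Leaving out 1 library gave -8.18 to -7.42 for *Ankrd1* and -2.45 to -1.98 for *Ctgf*. The lowest value of *Ankrd1* was that without KO replicate 2, and those of *Ctgf* were without WT replicate 2 (-2.45) and WT replicate 1 (-1.98); where 1 library of a genotype is left, it is assumed to vary like the other pair.

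Of the other pathway genes, 21 rose and 32 fell. With an adjusted p under 0.01 and an absolute log2 fold change over 2 these were 3 and 2, since the limit on size removes most genes, and with an adjusted p of 0.01 alone 19 and 28. Under other scalings, filters and tools 19 to 27 rose and 27 to 34 fell, and without 1 library 19 to 23 and 27 to 33. No call turned direction under another scaling. Library totals kept 48 of the 53 calls. The replicate number as a block gave 21 and 32 with all 53 calls kept, and -7.78 for *Ankrd1*. The deviations of same-numbered libraries from their group means correlated at -0.03 over genes. With 2 libraries per genotype this is a single comparison, which cannot show whether same-numbered libraries were paired. The count of genes whose groups do not overlap was 10 with either other filter, and involves no test or block.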
